A study of Mus musculus with 4 samples.

Results

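The neuregulins and the ErbB receptors form one signaling system, and this account follows its 8 core genes, *Nrg1*, *Nrg2*, *Nrg3*, *Nrg4*, *Egfr*, *Erbb2*, *Erbb3* and *Erbb4*, through the nuclei of the mouse brain. The 8 genes were taken by their symbols from the 31053 gene rows of the deposited matrices, and all 8 had at least 1 UMI (unique molecular identifier, a counted RNA molecule) in every library. The family was picked because earlier results of the same data showed less *Erbb4* in *Csf1r*+/- microglial and endothelial nuclei. Those values are therefore described here without a test, and other classes were tested. The other classes come from the same libraries, so their tests of *Erbb4* are not independent of that choice.

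The data are single-nucleus RNA-seq profiles (snRNA-seq, 10x Genomics 3' chemistry) of brains from 2-month-old female C57/BL6 mice, an age at which the mutants were asymptomatic. There were 2 wild-type (WT) mice and 2 *Csf1r*+/- mice, with 1 library per mouse. The study's design names 3 mice per genotype, and the third of each was not analysed here. *Csf1r*+/- mice lack 1 of the 2 copies of the CSF-1 receptor gene in every cell, and they are a model of CSF-1 receptor-related leukoencephalopathy, so a difference in a neuron or a glial cell cannot be assigned to the deletion in that cell. The brains were perfused, nuclei were isolated without detergent, and myelin was depleted with beads. After the filters 16114 and 15247 WT nuclei and 9589 and 11182 *Csf1r*+/- nuclei remained, 52132 in all, with 88097109 to 111488169 UMIs per library.

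Nuclei were grouped by clustering without the 8 genes, and 47643 of them fell into 54 classes. These comprised 6 glial or vascular classes, 19 inhibitory clusters, 20 excitatory clusters and 9 other neuron clusters. Genes on the opposite strand within members (*Egfros*, *Nrg3os* and *Gm20642*) were not left out of the clustering. The classes may therefore not be fully independent of *Egfr* and *Nrg3*. A class was named after a cell type, with the ending "-like", only from marker genes, and otherwise carries its 2 leading genes. Levels are given as CPM, the counts per 1000000 UMIs of that class in that library. The targeted gene checked the labels: *Csf1r* in microglia-like nuclei stood at 730 and 847 CPM in the WT libraries and at 549 and 539 CPM in the *Csf1r*+/- libraries, with no overlap. Over all kept nuclei it stood at 3.04 and 6.53 CPM (WT) and at 6.68 and 6.36 CPM (*Csf1r*+/-), and the genotypes overlapped. All 12 microglial markers had UMIs in the microglia-like nuclei of every library. Every glial and vascular class also held neuronal RNA, and the endothelial-like nuclei held the most, with 6364 to 10295 CPM over 20 neuronal markers. Pairs of libraries shared 33 to 68 nucleus barcodes, at most 0.465% of the smaller library.

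Neuregulins are growth factors with an EGF-like domain, made mostly as membrane-bound precursors that proteases such as BACE1 and ADAM17 cut. They bind ErbB3 and ErbB4, which then pair with each other or with ErbB2. ErbB2 binds no known ligand, and ErbB3 has a weak kinase, so both act in pairs. EGFR (ErbB1) binds EGF, TGF-α, HB-EGF and related factors rather than neuregulins. In the brain, ErbB4 is known above all from GABAergic interneurons, where it takes part in the formation of excitatory synapses onto them. ErbB3 is known from the oligodendrocyte lineage and, outside the brain, from Schwann cells, in which axonal NRG1 sets the thickness of myelin.

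In the mm10 assembly the ligand genes lie at chr8:31814551-32884029 (*Nrg1*), chr18:36017652-36197380 (*Nrg2*), chr14:38368952-39473088 (*Nrg3*) and chr9:55220222-55326844 (*Nrg4*), all on the minus strand. The receptor genes lie at chr11:16752203-16918158 on the plus strand (*Egfr*), chr11:98412470-98437716 on the plus strand (*Erbb2*), chr10:128567523-128589652 on the minus strand (*Erbb3*) and chr1:68032186-69108059 on the minus strand (*Erbb4*). Nuclear RNA is rich in introns and these genes differ greatly in length, so levels were compared between classes and never between genes.

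*Erbb4*, the neuregulin receptor of interneurons, separated inhibitory from excitatory neurons. Pooled inhibitory neurons held 7615 and 5972 CPM in the WT libraries and 6166 and 7365 CPM in the *Csf1r*+/- libraries. Pooled excitatory neurons held 104 and 153 CPM in the WT libraries and 66.3 and 53.0 CPM in the *Csf1r*+/- libraries. Within each library the inhibitory level was 39.1 to 139 times the excitatory level. Of 409848 *Erbb4* UMIs in all kept nuclei, 25.0% lay in the 1116 Pvalb-like interneurons.

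Among the inhibitory clusters the Pthlh/Unc5b cluster of 62 nuclei had the highest *Erbb4* level, 19542 ± 1297 CPM (SD, n = 4 libraries), and its lowest library lay above the highest library of the next cluster, Hapln1/Pde11a. Pvalb-like interneurons followed at 14383 ± 825 CPM, Lamp5-like interneurons at 11717 ± 1325 CPM and Vip-like interneurons at 11551 ± 1366 CPM, and the libraries of the last 2 overlapped. Sst-like interneurons were far lower, at 2871 ± 493 CPM. Drd2 striatal projection neuron-like nuclei held 893 ± 334 CPM and the other striatal projection neuron-like cluster 3179 ± 232 CPM. With nuclei thinned to 1000 UMIs, *Erbb4* was seen in 99.8% of Pvalb-like and 57.3% of Sst-like interneurons. This and all later thinned shares cover only nuclei with at least 1000 UMIs. It was seen in 7.86% of pooled excitatory nuclei, against 32.9% before thinning at a median of 5744 to 9216 UMIs per nucleus.

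The excitatory cluster with the most *Erbb4* was Ndst4/Abi3bp, at 408 ± 101 CPM. The other 19 ranged from 48.5 CPM in the Tmc1/Ccbe1 cluster to 203 CPM in the Vmn1r209/Olfr111 cluster. Of the 53 neighboring pairs in the order of classes by *Erbb4*, 49 overlapped in their library ranges, and the 4 gaps all lay among the inhibitory clusters ranked from 1 to 11.

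Glial *Erbb4* was highest in the oligodendrocyte lineage. Oligodendrocyte precursor-like nuclei, 152 in all, held 3169, 2872, 1559 and 2329 CPM in the 2 WT and the 2 *Csf1r*+/- libraries. These levels rest on 20, 109, 16 and 7 nuclei and were not tested for genotype. Nuclei with a UMI of *Gad1*, *Gad2*, *Slc17a7* or *Slc17a6* held 48.0%, 47.9%, 53.4% and 30.3% of these *Erbb4* UMIs. Oligodendrocyte-like nuclei held 1732, 2121, 2134 and 2022 CPM in the same order, with a median of 1703 to 2055 UMIs per nucleus and *Erbb4* in 71.7% of nuclei after thinning. The 47 astrocyte-like nuclei held 1124 ± 476 CPM and the mural-like nuclei 205 ± 138 CPM. In oligodendrocyte-like nuclei there were 28.5 to 41.0 *Erbb4* UMIs for each UMI of 6 inhibitory neuron markers (*Gad1*, *Gad2*, *Slc32a1*, *Dlx1*, *Dlx6* and *Dlx6os1*), against 6.54 to 8.73 in inhibitory neurons. Oligodendrocyte precursor-like nuclei gave 16.5 to 25.8, from few marker UMIs. Neuronal RNA in oligodendrocyte-like nuclei was estimated from neuronal markers, which cannot tell free RNA from that of doublets. Subtracting this estimate, called free neuronal RNA below, left 1171 of 1538, 4154 of 5106, 2101 of 2377 and 1415 of 1669 *Erbb4* UMIs in the 4 libraries. Here and below, the remainder was set to 0 where the estimate exceeded the count.

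**Figure D1:**
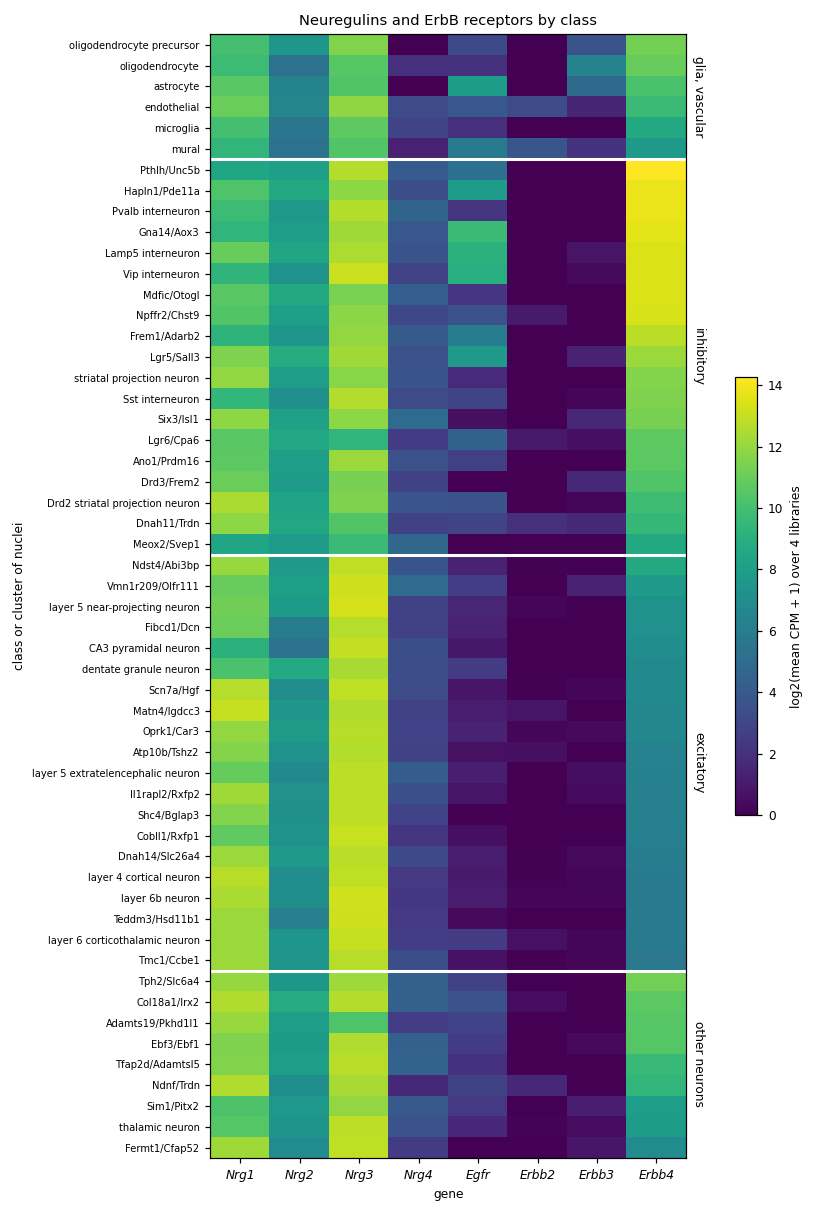
Mean level of each of the 8 genes over the 4 libraries in the 54 classes, as log2(mean CPM + 1), with classes grouped into glia and vessels, inhibitory, excitatory and other neurons and ordered by *Erbb4* within each group. *Erbb4* is bright in inhibitory clusters, *Egfr* in a subset of them, *Nrg1* and *Nrg3* across neurons and *Erbb3* in oligodendrocyte-like nuclei. *Erbb2* is near 0 almost everywhere, with its highest mean of 13.01 CPM in mural-like nuclei.

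*Egfr*, the receptor for EGF and TGF-α, was high in a subset of the interneuron classes. The Gna14/Aox3 inhibitory cluster of 93 nuclei held 826 ± 126 CPM, Lamp5-like interneurons held 705 and 502 CPM (WT) and 485 and 607 CPM (*Csf1r*+/-), and Vip-like interneurons held 562 and 403 CPM (WT) and 521 and 464 CPM (*Csf1r*+/-). Pvalb-like interneurons, which were near the top for *Erbb4*, held 3.67 ± 4.19 CPM, and pooled excitatory neurons held 1.45 ± 0.36 CPM. After thinning to 1000 UMIs, *Egfr* was seen in 39.1% of Lamp5-like, 32.2% of Vip-like, 0.0903% of Pvalb-like and 0.149% of pooled excitatory nuclei. Astrocyte-like nuclei followed Vip-like interneurons in the order of classes, at 235 ± 232 CPM, but they held only 27 *Egfr* UMIs, and the 5 nuclei of the second *Csf1r*+/- library held none. Mural-like nuclei held 55.2 ± 28.0 CPM from 24 UMIs.

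*Erbb3* was highest in oligodendrocyte-like nuclei. They held 61.9 and 96.8 CPM in the WT libraries and 80.8 and 94.5 CPM in the *Csf1r*+/- libraries, and they carried 59.0% of its 773 UMIs. The gene had a UMI in 16.5% of oligodendrocyte-like nuclei (95% exact binomial interval 15.02 to 18.04%), which covers counting error only. It had a UMI in 0 of 704 microglia-like nuclei, which allows a share of nuclei with a UMI of up to 0.426% at this depth and does not limit the share that expresses the gene. Depth was a median of 1122 to 1442 UMIs per nucleus in microglia-like and 1703 to 2055 in oligodendrocyte-like nuclei. Oligodendrocyte precursor-like nuclei held 13 *Erbb3* UMIs and pooled excitatory neurons 0.17 ± 0.22 CPM.

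*Erbb2*, the partner receptor, was scarcely detected, with 72 UMIs in 52132 nuclei. Its highest means were in the vascular classes, at 13.01 ± 11.2 CPM in mural-like nuclei (6 UMIs) and 8.47 ± 9.57 CPM in endothelial-like nuclei (10 UMIs). The mural-like cluster met the marker limits for 12 endothelial markers as well as 9 mural ones, so these classes are not fully distinct. In oligodendrocyte-like nuclei, where its partner *Erbb3* was highest, *Erbb2* had a UMI in 0 of 2383 nuclei, which allows a share of nuclei with a UMI of up to 0.126%. At this depth a low level of *Erbb2* in that class was not detectable.

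**Figure D2:**
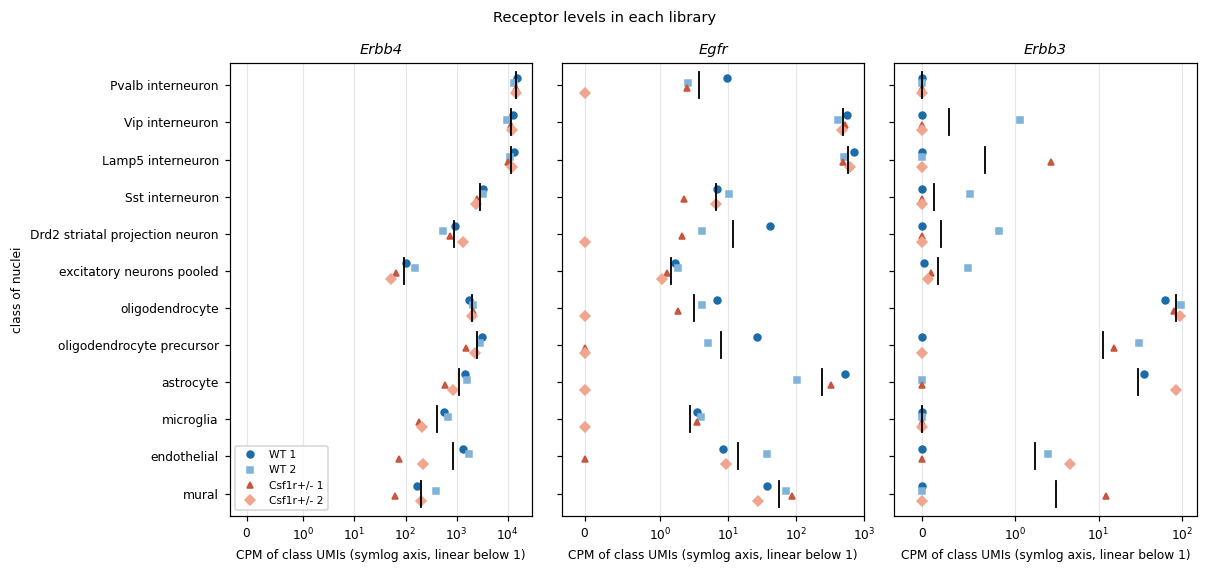
CPM of *Erbb4*, *Egfr* and *Erbb3* in 12 classes on axes that are logarithmic above 1 and linear below it, with 1 symbol per library (blue, WT; red, *Csf1r*+/-) and a black bar at the mean. Pvalb-like interneurons sit at 14383 CPM for *Erbb4* and at 3.67 CPM for *Egfr*, whereas Vip-like and Lamp5-like interneurons are high for both, and *Erbb3* is highest in oligodendrocyte-like nuclei.

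Among the ligands, *Nrg1* was strongest in excitatory clusters. Endothelial-like nuclei also held 2447 and 2040 CPM (WT) and 2646 and 1379 CPM (*Csf1r*+/-). Subtracting the estimate of free neuronal RNA left 0 and 0 (WT) and 197 and 0 (*Csf1r*+/-) of their *Nrg1* UMIs. Whether this *Nrg1* is neuronal RNA was not tested. The Matn4/Igdcc3 excitatory cluster held 7632 and 7781 CPM (WT) and 8220 and 8972 CPM (*Csf1r*+/-), and every one of its libraries lay above those of the next class. Layer 4 cortical neuron-like nuclei held 6755 ± 524 CPM and Drd2 striatal projection neuron-like nuclei 5537 ± 478 CPM. Hippocampal classes were low in comparison, with 1137 ± 237 CPM in dentate granule neuron-like and 566 ± 227 CPM in CA3 pyramidal neuron-like nuclei. The interneuron classes that carried the receptor held less of the ligand, with 640 ± 83.0 CPM in Vip-like, 873 ± 120 CPM in Pvalb-like and 1971 ± 169 CPM in Lamp5-like interneurons. Within each library the inhibitory level was 0.32 to 0.42 times the excitatory one.

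*Nrg2* showed the reverse order between the 2 neuron groups, with 1.42 to 1.64 times as much in pooled inhibitory as in pooled excitatory neurons of the same library. The Lgr5/Sall3 inhibitory cluster held 445 ± 110 CPM. Dentate granule neuron-like nuclei held 422 ± 62.7 CPM, whereas CA3 pyramidal neuron-like nuclei held 41.4 ± 6.12 CPM and the Fibcd1/Dcn excitatory cluster 63.4 ± 3.81 CPM, and none of the libraries of the first overlapped those of the other two. The lowest class was oligodendrocyte-like nuclei, with 39.7 ± 17.4 CPM, while oligodendrocyte precursor-like nuclei held 180 ± 25.0 CPM.

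*Nrg3*, whose product is a brain-enriched ErbB4 ligand, was high in nearly all neurons. Layer 5 near-projecting neuron-like nuclei led with 10514 and 9265 CPM (WT) and 10508 and 10551 CPM (*Csf1r*+/-), followed by layer 6b neuron-like nuclei with 9494 ± 551 CPM. Vip-like interneurons held 8754 ± 876 CPM, so that this ligand and *Erbb4* were both high in them. The lowest of the 54 classes was the Lgr6/Cpa6 inhibitory cluster, with 676 ± 279 CPM, below all the glial classes. Oligodendrocyte-like nuclei held 1505 ± 666 CPM, and subtracting the estimate of free neuronal RNA left 0 *Nrg1* and *Nrg3* UMIs in this class in all 4 libraries. The estimate was above the count in each case, so these values are a floor and not measured remainders. In astrocyte-like nuclei the same estimate left 26 of 34 and 25 of 69 *Nrg1* UMIs in the WT libraries. In the *Csf1r*+/- libraries, with 10 and 5 nuclei, the estimate was 0.0%, so their 5 and 38 UMIs could not fall. Neuronal markers still summed to 3429 and 4770 CPM in these 2 libraries, so the estimate cannot show whether their *Nrg1* is neuronal RNA.

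*Nrg4*, a ligand known mainly from adipose tissue, was sparse at 3898 UMIs in all. Its highest means were 30.8 ± 23.4 CPM in the Six3/Isl1 inhibitory cluster, where 1 of the 4 libraries had none, and 30.2 ± 7.61 CPM in the Vmn1r209/Olfr111 excitatory cluster. Pvalb-like interneurons held 23.0 ± 6.25 CPM against 6.69 ± 3.33 CPM in Vip-like interneurons, with no overlap between their libraries. Layer 5 extratelencephalic neuron-like nuclei held 17.7 ± 4.70 CPM.

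**Figure D3:**
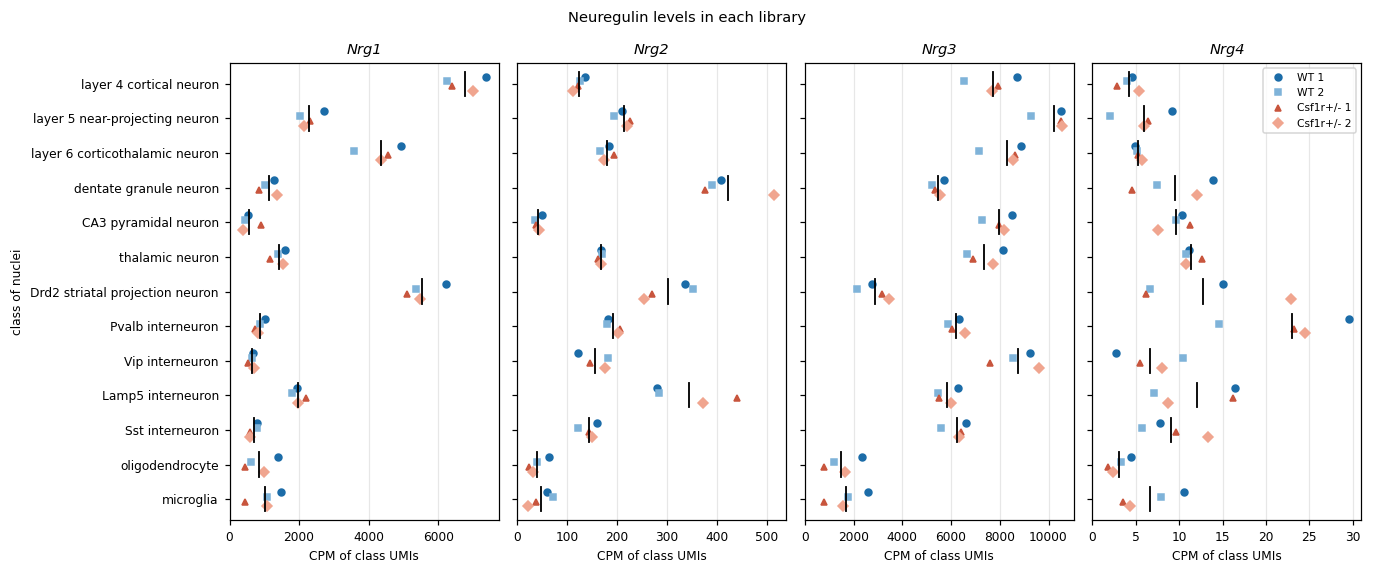
CPM of the 4 neuregulins in neuronal, oligodendrocyte-like and microglia-like classes on linear axes that start at 0, with 1 symbol per library (blue, WT; red, *Csf1r*+/-) and a black bar at the mean. *Nrg1* is high in layer 4-like nuclei and low in CA3-like nuclei, *Nrg2* stands out in dentate granule-like nuclei, and *Nrg3* peaks in layer 5 near-projecting-like nuclei at 10210 CPM.

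Likeness of pattern was measured by Pearson's r of log2(mean CPM + 1) over the 54 classes, among 14911 genes and outside the marker lists. These classes come from the same 4 libraries and share depth and free RNA, so r is a description. For *Erbb4* the genes with a similar pattern included *Gm38505* (r = 0.79), *Rbms3* (0.78) and *Grip1*, which encodes a scaffold protein of AMPA receptors (0.76). For *Egfr* they included *Egfros* (0.91), *Ddr2*, a collagen receptor (0.74), and *Hapln1* (0.68). *Egfros* lies on the opposite strand within *Egfr*, and *Gm20642* (r = 0.98) and *Nrg3os* (0.89), the leading genes for *Nrg3*, lie on the opposite strand within *Nrg3*, so that their reads may not be separable. The clustering did not leave these genes out. *Egfros* was among the top 10 genes of the Lamp5-like, the Gna14/Aox3 and the larger Vip-like cluster, so these *Egfr*-high classes may not be independent of it. *Hecw1* (0.85) and *Rims1*, a gene of the presynaptic active zone (0.81), came next for *Nrg3*.

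The pattern of *Erbb3* was closest to that of *Cdh19* (0.87), *1700047M11Rik* (0.85), *Nkx2-2os* (0.85) and *Snx33* (0.85). *Erbb2* was closest to *Bvht* (0.86), *Gbp4* (0.86), the basement membrane gene *Nid1* (0.86) and *Sema3g* (0.85), and rests on few UMIs. *Nrg1* was led by *Rasgef1b* (0.71), *Ptgis* (0.69), *R3hdm2* (0.69) and *Arhgap32* (0.67). *Nrg2* was led by *Ttc3* (0.74), *Sgip1* (0.71), *Rfx7* (0.70) and *Dzip3* (0.69), and *Nrg4* by *Gm960* (0.77), *Ube3a* (0.76), *Mmp24* (0.72) and *Naa40* (0.72). Among the members themselves the highest value was between *Erbb4* and *Egfr* (0.67) and the lowest between *Erbb3* and *Nrg4* (-0.49). *Erbb4* and *Nrg1* gave -0.46 and *Erbb4* and *Nrg3* gave -0.34.

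Other genes of the pathway were spread over different cells. Of the 8 other ErbB ligands, *Tgfa* was highest in oligodendrocyte precursor-like nuclei (120 ± 67.4 CPM) and microglia-like nuclei (99.7 ± 14.9 CPM). *Hbegf* was highest in endothelial-like nuclei (40.3 ± 14.5 CPM) and *Btc* in oligodendrocyte-like nuclei (6.22 ± 2.98 CPM). *Cspg5*, whose product neuroglycan C can bind ErbB3, was highest in oligodendrocyte precursor-like nuclei (536 ± 107 CPM) and astrocyte-like nuclei (467 ± 93.6 CPM). *Egf* reached 60.1 ± 41.0 CPM in the Lgr5/Sall3 inhibitory cluster, and *Ereg* had no UMI.

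The proteases that cut neuregulins differed in the same way. *Bace1* was highest in oligodendrocyte-like nuclei (64.3 ± 9.18 CPM), as was *Adam19* (120 ± 10.8 CPM). *Adam10* (293 ± 35.9 CPM) and *Adam17* (144 ± 32.7 CPM) were highest in microglia-like nuclei. Several adaptors and partners were highest in oligodendrocyte-like nuclei, among them *Erbin*, an ErbB2-binding protein (823 ± 63.0 CPM), *Magi2* (6891 ± 655 CPM) and the docking protein gene *Gab1* (653 ± 95.8 CPM). Its relative *Gab2* was highest in microglia-like nuclei (1042 ± 165 CPM).

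The genotype contrast asks whether loss of 1 copy of *Csf1r* went with a different level of these genes before symptoms. For each class the counts of every library were added up, and edgeR's quasi-likelihood test was run on the sums in the 50 classes or pools with at least 10 nuclei in each library. Oligodendrocyte precursor-like and astrocyte-like nuclei had too few and were not tested. Adjusted p values are by Benjamini-Hochberg over all genes tested in the class, and log2 fold changes are *Csf1r*+/- minus WT with their SE. A permutation test of 2 against 2 libraries cannot give a p below 0.333, so differences rest on the model fitted across all genes. Litters are not given per library, and p values cover only the spread between these libraries.

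In neurons, *Erbb4* was called lower in *Csf1r*+/- in 4 excitatory clusters, and no other member passed the adjusted threshold in any neuronal class. These 4 calls came from 248 pairs of a member and a neuronal class or pool. Over all genes 0.00714% of such pairs were called. In the Shc4/Bglap3 cluster *Erbb4* stood at 90.9 and 147 CPM (WT) and at 18.6 and 27.8 CPM (*Csf1r*+/-) after TMM scaling, a log2 fold change of -2.36 ± 0.29 (adjusted p = 0.000905). In layer 5 extratelencephalic neuron-like nuclei it stood at 96.4 and 140 CPM (WT) and at 39.0 and 17.4 CPM (*Csf1r*+/-) on the same scale, a change of -2.12 ± 0.29 (adjusted p = 0.0412). With the replicate number as a block its value was -2.14 and no longer passed. The Atp10b/Tshz2 cluster gave -1.51 ± 0.24 (adjusted p = 0.0419) and the Matn4/Igdcc3 cluster -1.25 ± 0.22 (adjusted p = 0.0255). The Matn4/Igdcc3 call was lost whichever library was left out, with values from -1.51 to -0.998, and DESeq2 called neither it nor layer 5 extratelencephalic neuron-like nuclei. Without nuclei of high doublet score only the Matn4/Igdcc3 call held, and with the study's 10% detection filter only the Shc4/Bglap3 call. In all 4 clusters both *Csf1r*+/- libraries lay below both WT libraries, which restates the values that gave the calls. The Shc4/Bglap3 call rests on 56 and 98 (WT) and 26 and 37 (*Csf1r*+/-) *Erbb4* UMIs. The Matn4/Igdcc3 call rests on 44 and 120 (WT) and 77 and 73 (*Csf1r*+/-). The summed inhibitory markers were also lower in both *Csf1r*+/- libraries in each of these clusters, and their part was not tested.

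The other excitatory clusters leaned the same way without passing the adjusted threshold. The log2 fold change of *Erbb4* was below 0 in 18 of 20 excitatory clusters, with a median of -1.27, where the median over all genes was 0.002. An unadjusted p under 0.01, the threshold of the study, was met with a lower level in 15 of 20 clusters, against 0.446% of all genes tested in these clusters. The *Csf1r*+/- libraries lay below the WT libraries without overlap in 15 of 20, against 17.7%. The 20 clusters come from the same 4 libraries and share free RNA, so they are not 20 independent observations. Nor are they independent of the microglial and endothelial values that chose the gene, which come from these libraries too. The clusters with higher values were CA3 pyramidal neuron-like nuclei (0.27 ± 0.43) and the *Erbb4*-richest excitatory cluster, Ndst4/Abi3bp (0.24 ± 0.23).

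Pooled over excitatory neurons the log2 fold change of *Erbb4* was -1.02 ± 0.19. It met an unadjusted p under 0.01 by edgeR, as did 0.527% of the 21272 genes tested there, and it did not pass after adjustment. In inhibitory neurons, which hold most of the RNA of this gene, there was no such difference. Pooled inhibitory neurons gave 0.002 ± 0.20, and the 15 tested inhibitory clusters gave 6 negative and 9 positive values with a median of 0.02. Pvalb-like interneurons gave 0.02 ± 0.21 and Vip-like interneurons 0.11 ± 0.23. Sst-like interneurons gave -0.41 ± 0.15 (adjusted p = 0.999). In the 8 other neuron clusters tested there were 5 negative and 3 positive values, from -0.65 ± 0.27 in the Adamts19/Pkhd1l1 cluster to 1.203 ± 0.65 in the Ndnf/Trdn cluster, and none passed the adjusted threshold. The log2 fold change in pooled inhibitory neurons lay 1.05 ± 0.27 above that in pooled excitatory neurons. This difference did not pass the adjusted threshold (edgeR interaction term, adjusted p = 0.467 over 17434 genes).

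Markers of inhibitory neurons moved with *Erbb4* in pooled excitatory nuclei. All 6 inhibitory markers had a UMI there, and all 6 had a negative log2 fold change in pooled excitatory neurons, with a median of -1.10. Of these, 3 met an unadjusted p under 0.01 and none the adjusted threshold. Their summed level was 12.2 and 22.6 CPM in the WT libraries and 8.99 and 6.66 CPM in the *Csf1r*+/- libraries. The sum was lower in both *Csf1r*+/- libraries than in both WT libraries in 14 of the 20 excitatory clusters. The *Erbb4* UMIs per inhibitory marker UMI in pooled excitatory neurons were 8.50 and 6.77 (WT) and 7.37 and 7.96 (*Csf1r*+/-), and in pooled inhibitory neurons 8.53 and 7.16 (WT) and 6.54 and 8.73 (*Csf1r*+/-), ranges that overlapped. The pool hides single clusters. Ndst4/Abi3bp, with a positive log2 fold change, held 1224 and 752 of the pool's 3643 and 3096 *Csf1r*+/- *Erbb4* UMIs. Layer 5 extratelencephalic neuron-like nuclei held 184 and 309 (WT) and 81 and 51 (*Csf1r*+/-) *Erbb4* UMIs. Their marker UMIs were 26 and 45 (WT) and 18 and 16 (*Csf1r*+/-). In the Matn4/Igdcc3 cluster 44 and 120 (WT) and 77 and 73 (*Csf1r*+/-) stood beside 6 and 39 (WT) and 22 and 16 (*Csf1r*+/-). Median UMIs per excitatory nucleus were 6636 and 5744 (WT) and 9216 and 7479 (*Csf1r*+/-), a gap in depth between the genotypes. Over all kept nuclei *Erbb4* stood at 1132 and 1308 CPM (WT) and at 981 and 917 CPM (*Csf1r*+/-). Inhibitory nuclei made up 19.4% and 25.4% (WT) and 20.9% and 15.7% (*Csf1r*+/-) of the inhibitory and excitatory nuclei. The part of inhibitory neuron RNA, of these library-wide levels and of depth in the *Erbb4* difference was not tested. Leaving out excitatory nuclei with a UMI of any inhibitory marker, an alternative chosen after seeing the data, gave -0.88 for the pool and left 2 of the 4 calls, in the Shc4/Bglap3 and Atp10b/Tshz2 clusters.

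**Figure D4:**
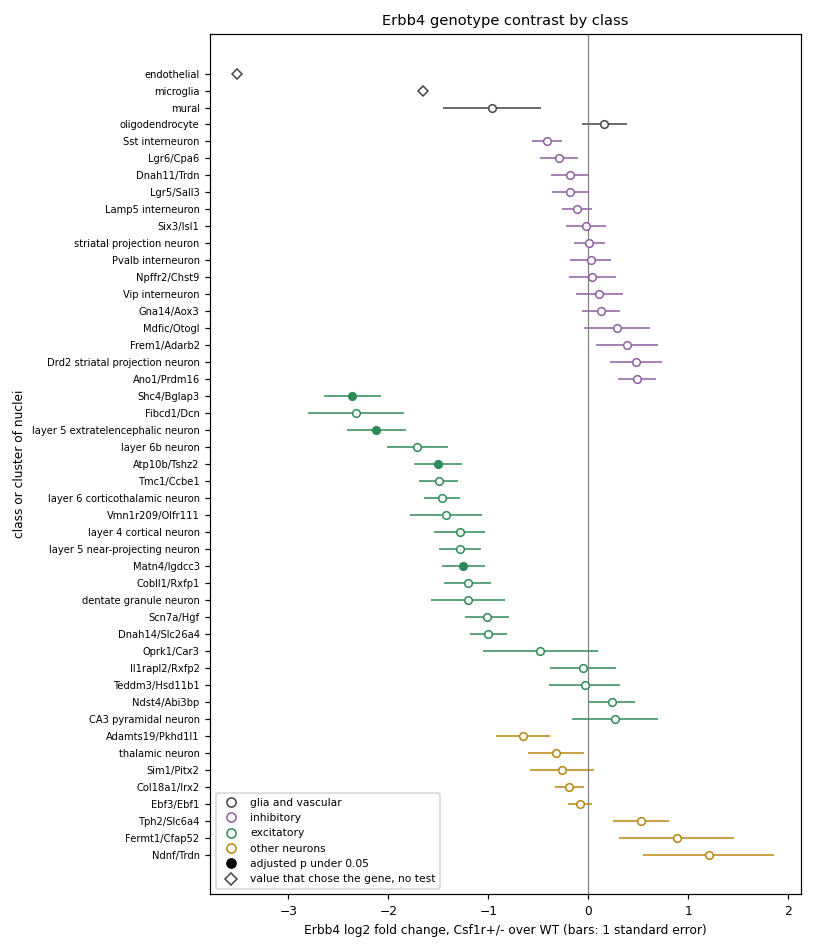
Log2 fold change of *Erbb4* (*Csf1r*+/- minus WT) with its SE for each tested class, colored by kind of class, filled where the adjusted p is under 0.05, and drawn as diamonds without a bar for the 2 values that chose the gene. Excitatory clusters lie mostly between -2.36 and -1.002, inhibitory clusters lie on both sides of 0, and oligodendrocyte-like nuclei lie at 0.16.

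The values that led to this family were those of the microglia-like and endothelial-like nuclei. In microglia-like nuclei *Erbb4* stood at 554 and 684 CPM (WT) and at 184 and 215 CPM (*Csf1r*+/-), from 158, 172, 53 and 49 UMIs. The log2 fold change was -1.65. In endothelial-like nuclei it stood at 1364 and 1728 CPM (WT) and at 74.9 and 218 CPM (*Csf1r*+/-), from 995, 694, 22 and 48 UMIs, a change of -3.51. In neither class did the genotypes overlap. Over all genes tested in these 2 classes, 19.7% of values had both *Csf1r*+/- libraries below both WT libraries.

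A few nuclei carried much of this RNA. *Erbb4* had a UMI in 33.8% and 50.0% (WT) and 21.0% and 26.7% (*Csf1r*+/-) of endothelial-like nuclei, and the median over those nuclei was 1 or 2 UMIs in every library. The single highest endothelial-like nucleus held 193 and 281 UMIs (WT) against 3 and 14 (*Csf1r*+/-). In microglia-like nuclei the shares were 32.7% and 42.7% (WT) and 22.2% and 26.6% (*Csf1r*+/-), and the highest nucleus held 74 and 32 UMIs (WT) against 6 and 3 (*Csf1r*+/-). Both the share of nuclei with a UMI and the highest nucleus were thus lower in the *Csf1r*+/- libraries. These measures restate the values that chose the gene, and neither was compared over all genes. The highest nucleus also depends on the number of nuclei, which in the endothelial-like class was 284 and 114 (WT) and 81 and 86 (*Csf1r*+/-). The 5 nuclei with the most *Erbb4* held 55.1% and 42.4% (WT) and 28.3% and 22.4% (*Csf1r*+/-) of the UMIs of microglia-like nuclei. In endothelial-like nuclei they held 56.1% and 75.9% (WT) and 45.5% and 62.5% (*Csf1r*+/-). Endothelial-like nuclei that also had a UMI of *Gad1*, *Gad2*, *Slc17a7* or *Slc17a6*, genes of inhibitory and excitatory neurons, held 89.7% and 93.7% of the *Erbb4* UMIs in the WT libraries and 27.3% and 31.2% in the *Csf1r*+/- libraries. Without those nuclei the endothelial levels were 307 and 329 CPM (WT) and 134 and 210 CPM (*Csf1r*+/-), a log2 fold change of -0.89, and that of microglia-like nuclei was -0.99. Nuclei with a high doublet score held 90.6% and 35.9% (WT) and 9.09% and 64.6% (*Csf1r*+/-) of the endothelial *Erbb4* UMIs. Without them the endothelial levels were 277 and 2107 CPM (WT) and 104 and 130 CPM (*Csf1r*+/-), a log2 fold change of -3.44, so that the first WT library was lower and the second higher than with them.

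The summed inhibitory markers were 66.7 and 91.4 CPM (WT) and 41.7 and 70.1 CPM (*Csf1r*+/-) in microglia-like nuclei. They were 128 and 202 CPM (WT) and 20.4 and 68.3 CPM (*Csf1r*+/-) in endothelial-like nuclei. The *Erbb4* UMIs per inhibitory marker UMI were 8.32 and 7.48 (WT) against 4.42 and 3.06 (*Csf1r*+/-) in microglia-like nuclei. In endothelial-like nuclei they were 10.7 and 8.57 (WT) against 3.67 and 3.20 (*Csf1r*+/-). These ratios rest on few marker UMIs, 19 and 23 (WT) and 12 and 16 (*Csf1r*+/-) in microglia-like nuclei. In endothelial-like nuclei there were 93 and 81 (WT) and 6 and 15 (*Csf1r*+/-). Subtracting the estimate of free neuronal RNA left 41, 45, 3 and 0 UMIs in microglia-like nuclei and 426, 313, 0 and 0 in endothelial-like nuclei, so that no fold change remained to be computed from the *Csf1r*+/- side. In endothelial-like nuclei the estimate exceeded the *Csf1r*+/- counts, with 150 against 22 and 84.9 against 48. In microglia-like nuclei of the second *Csf1r*+/- library it was 67.1 against 49. These remainders were set to 0, so a 0 here is not a measured absence. The estimated share of neuronal RNA in endothelial-like nuclei was itself higher in the WT libraries, at 69.0% and 72.6%, than in the *Csf1r*+/- libraries, at 52.0% and 42.1%. This share counts neuronal RNA of doublets as well as free RNA.

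**Figure D5:**
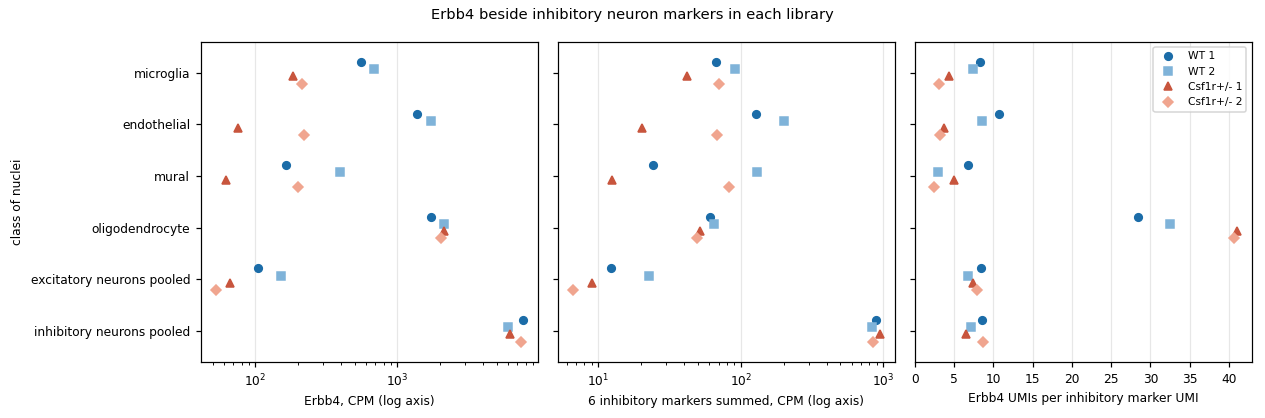
*Erbb4* (left), the 6 inhibitory markers summed (middle), both in CPM on log axes, and *Erbb4* UMIs per inhibitory marker UMI (right, linear from 0), with 1 symbol per library (blue, WT; red, *Csf1r*+/-). In microglia-like, endothelial-like and pooled excitatory nuclei the WT libraries lie above the *Csf1r*+/- libraries for *Erbb4*, and the right panel sets oligodendrocyte-like nuclei, at 28.5 to 41.0, apart from the other classes plotted. Oligodendrocyte precursor-like nuclei, at 16.5 to 25.8, are not plotted.

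The remaining glial and vascular values of the family did not pass the adjusted threshold in any of 21 pairs, against 0.0942% of all genes. Of the 21, 1 met an unadjusted p under 0.01 and 6 a p under 0.05 by edgeR, and DESeq2 called 0. Over all genes 1.5% and 6.18% of pairs met these limits. *Erbb4* in oligodendrocyte-like nuclei gave 0.16 ± 0.22 and in mural-like nuclei -0.96 ± 0.49 (adjusted p = 0.999 in both). *Erbb3* in oligodendrocyte-like nuclei gave 0.16 ± 0.25. *Erbb2* in endothelial-like nuclei gave 1.59 ± 1.05 from 10 UMIs. The value under p 0.01 was *Nrg3* in microglia-like nuclei, with -0.93 ± 0.31 (adjusted p = 0.426). *Nrg1* and *Nrg2* had negative values in all 4 glial and vascular classes tested, and the largest were -1.05 ± 0.38 for *Nrg1* in mural-like nuclei (adjusted p = 0.999) and -1.09 ± 0.45 for *Nrg2* in microglia-like nuclei (adjusted p = 0.530). The neuronal marker sum of microglia-like nuclei was also lower in the *Csf1r*+/- libraries, at 2000 and 3754 CPM, than in the WT libraries, at 5095 and 4265 CPM, and its part in the ligand values was not tested.

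In neurons the ligands and *Egfr* gave 6 values with an unadjusted p under 0.01 by edgeR, and none passed after adjustment. Over all genes 0.703% of the neuronal pairs met that limit. The 6 values came from 15 tested inhibitory clusters for *Nrg1*, *Nrg2* and *Nrg3* and from 3 other neuron clusters for *Egfr*. None came from the excitatory clusters. Their share over all pairs of these genes was not computed, so it cannot be set beside the 0.703%. *Nrg3* in the Lgr6/Cpa6 inhibitory cluster, the class with the least of this ligand, stood at 998 and 809 CPM (WT) and at 426 and 483 CPM (*Csf1r*+/-) after TMM scaling, a log2 fold change of -0.998 ± 0.21 (adjusted p = 0.142). *Nrg1* gave -1.18 ± 0.33 in the Frem1/Adarb2 inhibitory cluster, 0.96 ± 0.34 in the Mdfic/Otogl inhibitory cluster and -0.42 ± 0.14 in Sst-like interneurons, with adjusted p values of 0.511, 0.912 and 0.999. *Egfr* in the Ebf3/Ebf1 neuron cluster gave -1.45 ± 0.30 (adjusted p = 0.866) and *Nrg2* in Lamp5-like interneurons 0.53 ± 0.18 (adjusted p = 0.998). In pooled excitatory neurons, *Nrg1* gave 0.09 ± 0.17, *Nrg2* -0.01 ± 0.13 and *Nrg3* 0.10 ± 0.19.

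The pathway around the family showed no call. For the 62 measured genes in 4 lists (other ligands, processing enzymes, receptor partners and inhibitors, downstream signaling), 0 of 2506 pairs of a gene and a class passed the adjusted threshold with edgeR, and DESeq2 gave 0 as well. Over all genes 0.013% of pairs passed. An unadjusted p under 0.05 was met by 84 pairs, 3.35%, against 3.68% of all genes in the same classes, and p under 0.01 by 10, against 0.743%. In oligodendrocyte-like nuclei the 28 tested genes of downstream signaling had a median log2 fold change of 0.10, where all genes had -0.02. In microglia-like nuclei the 10 tested processing genes had a median of 0.23, where all genes had 0.02. Among the processing genes with the most counts, *Adam10* gave 0.03 ± 0.27 in microglia-like nuclei.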

How the data were processed

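Per the labels and the study's methods, nuclei were profiled with 10x Genomics 3' chemistry, and the authors made the matrices with Cell Ranger on mm10 (study's methods and submitters' processing notes). The deposited values are raw UMI counts per gene and nucleus, before the study's own filters, and they include intronic reads only as far as that counting did, which the sources used here do not give. Nuclei were kept at 500 to 50000 UMIs if they had over 200 genes and a mitochondrial share below 5%.

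Scanpy 1.11.5 and leidenalg 0.10.2 clustered log-normalized counts (3000 variable genes, 30 components, resolution 1, each library scaled on its own) without the 8 genes, and glial and inhibitory nuclei were clustered again. A name needed at least 3 markers, each in at least 10% of nuclei and at least 2 times its level elsewhere, and none of another type leading among the top 10 genes. A reclustered group that met this for more than 1 glial or vascular type was named only if 1 type clearly led its top 10 genes. Mural-like nuclei were named in this way. The naming rule was revised after the clusters were seen. Scrublet scores marked 0.8% of nuclei per 1000 in the library, and clusters with over 50% marked nuclei (3427 nuclei, 451 of them led by microglial and 997 by oligodendrocyte genes) were left out with 1062 unnamed, mixed or low-UMI nuclei. The members and lists were chosen with earlier results of these data known. All 8 members were named wherever they had at least 10 counts, and pathway genes by adjusted p or otherwise by count. Some genes that these rules name are not reported here.

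Counts were summed per library and class. Genes with at least 10 counts were tested, two-sided, with TMM scaling and edgeR 4.0.16 (quasi-likelihood), with DESeq2 1.42.0 as an alternative. The study used edgeR's likelihood-ratio test at an unadjusted p under 0.01. In data simulated from these libraries, 200 genes were changed by 1.5 on the log2 scale, all drawn from genes with at least 200 counts. Of these, 87% were recovered in microglia-like, 90.5% in endothelial-like and 96.5% in pooled inhibitory nuclei, with 11, 8 and 9 false calls. These shares do not cover genes with fewer counts, such as *Erbb2* in endothelial-like nuclei. Free RNA was estimated from 20 neuronal markers against all other nuclei of the library, so the estimate also counts neuronal RNA of doublets. The labels used here do not say whether replicate numbers mark shared litters or days. Deviations of same-numbered libraries correlated at -0.04 over all kept nuclei, at -0.42 in oligodendrocyte-like and at 0.11 in microglia-like nuclei. Library totals of 88097109 to 111488169 UMIs set the precision, and intervals cover counting error only. Gene positions are from GENCODE M21 (31011 of 31053 IDs matched). *Nrdc* and *Ccn2* had no row of that symbol.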

Additional observations from a re-analysis of the deposited data

How the results depend on the processing

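Of 368 log2 fold changes recomputed for 25 named values, 290 kept their direction and their side of the threshold, 56 passed it anew, 17 no longer passed, 5 values without a test moved, and 0 reversed. The 4 calls in neurons became 13 with the likelihood-ratio test, 14 with no count filter, 2 with library totals, 1 with the study's 10% detection filter, 1 without nuclei of high doublet score, 9 with a replicate block, 11 with the crossed pairing and 2 without excitatory nuclei carrying inhibitory markers (the last 2 chosen after seeing the data). The share of all genes called under each alternative is not given, here or for glia and vessels, so these totals cannot be set against a background. They also hide losses among the 4. With DESeq2 there were 6 calls, but layer 5 extratelencephalic neuron-like nuclei (-2.07) and the Matn4/Igdcc3 cluster (-1.24) no longer passed. The former was also lost with the replicate block (-2.14) and the latter in each of the 4 fits without 1 library. Without high doublet scores only the Matn4/Igdcc3 call held. With 1 library left out, the members that passed were mostly lower in *Csf1r*+/-, but some were higher. *Erbb4* gave 0.93 in Drd2 striatal projection neuron-like nuclei without WT replicate 1. Without *Csf1r*+/- replicate 2, *Erbb4* gave 1.86 in the Fermt1/Cfap52 cluster and *Egfr* 2.77 in the Frem1/Adarb2 cluster. Of the calls added, *Egfr* in the Ebf3/Ebf1 cluster and *Nrg3* in the Lgr6/Cpa6 cluster came with the likelihood-ratio test, no filter and both blocks. The labels do not say what same-numbered libraries share, and the correlation of their deviations ranged from -0.42 to 0.11 over the classes and pools compared.

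In glia and vessels 0 calls became 1 with no count filter (*Nrg3* in microglia-like nuclei) and 2 without nuclei carrying neuronal transporter or Gad UMIs (*Nrg1* and *Nrg3* in mural-like nuclei, both lower in *Csf1r*+/-), and leaving out 1 library gave 0 to 2, with 1 without either WT library and 2 without *Csf1r*+/- replicate 2. *Erbb4* in microglia-like nuclei moved from -1.65 to -1.88 at 1000 or more UMIs per nucleus, -1.30 without high doublet scores and -0.99 without neuronal transporter or Gad UMIs, with -1.77 to -1.55 when 1 library was left out. In endothelial-like nuclei it was -3.44 without high doublet scores and moved from -3.51 to -0.89 without neuronal transporter or Gad UMIs, with -4.38 to -2.91 when 1 library was left out. In pooled excitatory neurons it passed the adjusted threshold with the likelihood-ratio test (-1.02), DESeq2 (-1.01) and without WT replicate 1 (-1.22), over a range of -1.22 to -0.82 when 1 library was left out. Where 1 library is left out, the lone library of its genotype is assumed to vary like the other pair. The cause of these shifts was not tested. With free RNA subtracted, *Erbb4* in microglia-like and endothelial-like nuclei gave no fold change, since 3 or fewer counts were left in each *Csf1r*+/- library. Remainders below 0 had been set to 0. At resolution 2, 132 of 144 levels moved by less than 1 SD between libraries. Thinning to 1000 UMIs moved 11 of 12 shares of nuclei. Depth limits *Erbb2*, *Erbb3* and *Nrg4* outside their highest classes, and 2 libraries per genotype limit every contrast.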
